A study of Mus musculus with 82 samples.

Results

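The hexagons described here are small pieces of the mouse suprachiasmatic nucleus (SCN), the small paired cell group of the hypothalamus that serves as the mammalian master clock, in which Vip transcript was abundant and Grp transcript was either plentiful or nearly missing. They were chosen by measured values: anterior-posterior coordinate 191 to 383, Vip at 1000 CPM or more (CPM being counts scaled to the library total), and Grp at 50 CPM or more (Grp-rich) against Grp under 10 CPM (Grp-poor). This gave 12 Grp-rich and 4 Grp-poor hexagons, 16 of the 82 in the series. Another 7 Vip-rich hexagons lay between the Grp thresholds and 36 hexagons of the same sections had less Vip, so the sections held 59 in all. Each hexagon is 1 RNA library, cut by laser capture on a fixed grid from cresyl violet-stained tissue of C57BL/6 mice aged 8 weeks and turned into cDNA with Smart-seq2, which copies whole transcripts from tiny amounts of RNA. No hexagon received a treatment, and Grp-rich and Grp-poor hexagons share strain, age and preparation method. Library sets, inferred from a label and described under processing, were spread unevenly over the groups. The labels give neither animal nor sex nor time of day. Since several hexagons can come from the same mouse, every p-value below is too small and reflects only how hexagons vary. Coordinates have no unit in the labels, which do not say which end of an axis is dorsal, medial or anterior.

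Vip encodes vasoactive intestinal peptide, which SCN neurons release onto neighbours that carry its receptor, encoded by Vipr2, and which helps to hold their rhythms together. Grp encodes gastrin-releasing peptide, which acts through the receptor encoded by Grpr. Both peptides are known from neurons of the ventral, light-receiving core of the SCN, and applied GRP can shift the phase of the clock. Some core neurons make both peptides and others make either alone. A hexagon is larger than a cell, so its RNA may come from several cells, and fewer cells of a type and less RNA per cell cannot be told apart.

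Grp and Vip chose the groups, so their values are given as a description. Grp ran from 55.7 to 370 CPM in the Grp-rich hexagons (median 153), against 3.34, 5.39, 0 and 6.13 CPM in the Grp-poor ones of sections 239, 287, 287 and 383. The hexagon with 0 had a total of 417352 counts, and a count of 0 there allows up to 7.19 CPM (3 counts). The other 3 rested on 1, 2 and 7 Grp counts, with exact 95% Poisson limits that reached at most 19.5 CPM. These limits cover counting error only. All of them lay below 50 CPM, but those of these 3 hexagons (18.6, 19.5 and 12.6 CPM) exceeded the 10 CPM that defines Grp-poor. Likewise the lower limits of 3 Grp-rich hexagons, 35.5, 36.4 and 49.2 CPM, fell below 50 CPM. Just outside the rule, the Vip-rich hexagon with the most Grp below 50 CPM had 47.8 CPM and the one with the least at 10 CPM or more had 11.4 CPM. Vip ran from 1167 to 16430 CPM in the Grp-rich hexagons (median 5400), against 7723, 11544, 1040 and 1082 CPM in the Grp-poor ones. The lowest of these, 1040 CPM, lay just inside the Vip threshold, and the highest value outside it was 900 CPM. Per transcript length, the median was 1588 RPKM for Vip and 145 RPKM for Grp in Grp-rich hexagons, against 1294 RPKM for Vip and 4.13 RPKM for Grp in Grp-poor hexagons.

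**Figure D1:**
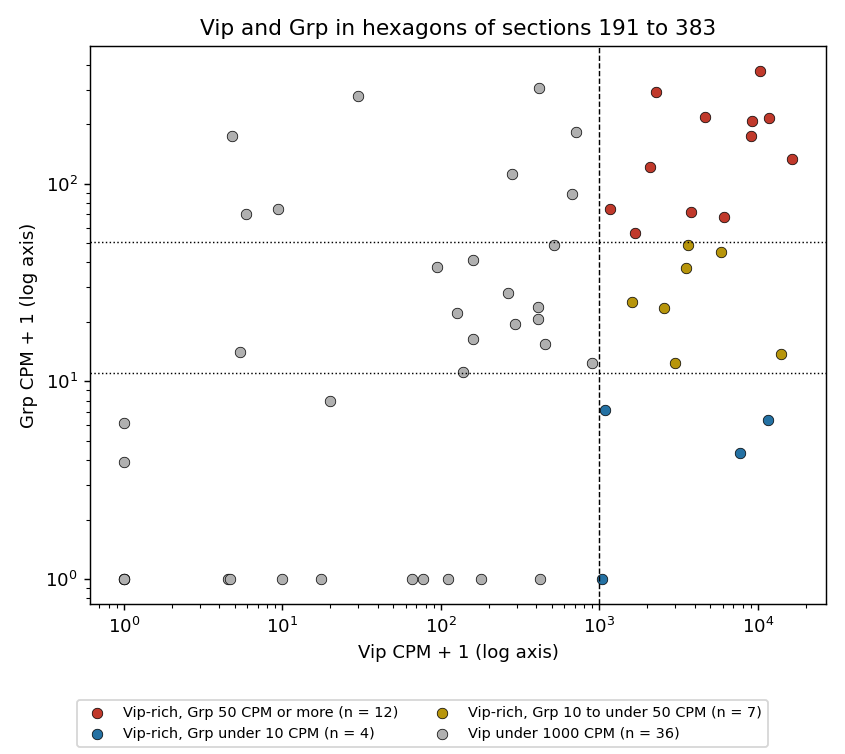
Vip CPM (horizontal) and Grp CPM (vertical) of the 59 hexagons of sections 191 to 383, each plus 1 on log axes, with the Vip threshold dashed and the Grp thresholds dotted. The 12 Grp-rich points sit at 55.7 to 370 CPM of Grp and the 4 Grp-poor points at 0 to 6.13, while Vip spans about the same range in both groups.

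Vip and Grp did not mark the same hexagons throughout. Among the 36 hexagons with Vip under 1000 CPM, Grp ran from 0 to 304 CPM (median 13.8), 8 had 50 CPM or more and 15 had under 10 CPM. Section 335 held 5 of these 8. Its highest pair had 304 and 277 CPM of Grp beside 415 and 28.9 CPM of Vip. The other 5 Vip-poor hexagons of that section had less than 50 CPM of Grp, down to 0, and the median of its 10 was 48.4 CPM. Outside sections 191 to 383, 1 hexagon of 23 passed the Vip threshold, with 1963 CPM of Vip and no Grp count.

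Depth overlapped between the groups. Totals ran from 195096 to 1058596 counts in the Grp-rich libraries and were 299247, 370759, 417352 and 1142419 in the Grp-poor ones. Mean log2 totals differed by -0.20 (exact permutation test, two-sided, adjusted p = 0.723 over 2 depth measures). Genes detected averaged 11122 ± 1195 in Grp-rich and 10979 ± 85.5 in Grp-poor hexagons (SD, n = 12 and 4; exact permutation test, two-sided, adjusted p = 0.723). Because mice may contribute several hexagons, both p-values are too small. The share of mitochondrial counts differed in its range, with 1.10 to 2.37% in Grp-rich hexagons (median 1.35) and 1.45 to 1.98% in Grp-poor ones (median 1.69). It was below every Grp-poor value in 10 of 12 Grp-rich hexagons, and its part in the gene differences was not tested. Beside Vip, which the rule used, the 11 SCN marker genes examined (Avp, Rorb, Lhx1, Six3, Six6, Rgs16, Syt10, Gad1, Gad2, Vipr2 and Prokr2) all had counts in 15 of the 16 hexagons. The remaining one, a Grp-rich hexagon of section 191, lacked Avp alone.

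Some hexagons stood apart from their groups. The Grp-rich hexagon of section 335 had the fewest genes detected of the 16 (8121), the largest share of mitochondrial counts (2.37%) and little transcript of several SCN markers, with 12 CPM of Rgs16, 89.9 of Syt10, 2.00 of Prokr2 and 5.99 of Vipr2. The Grp-poor hexagon of section 383 held 2506 CPM of meningeal fibroblast markers summed, against at most 109 in any Grp-rich hexagon and at most 141 in the other 3 Grp-poor ones. The Grp-poor hexagon of section 287 at medial-lateral 1488 held 973 CPM of Gnrh1, 103 of Trh and 74.3 of Slc17a6, the glutamatergic vesicle transporter, which read 0 in the other 3 Grp-poor hexagons and at most 5.13 CPM in the Grp-rich ones. That hexagon and the one of section 383 are also the 2 with the least Vip. With Vip at 2000 CPM or more in place of 1000, 10 Grp-rich and 2 Grp-poor hexagons remained, and these 3 were among those left out.

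Grp-poor hexagons were found at both ends of the medial-lateral axis, only 1 of them at the high end, with most Grp-rich hexagons between them. In sections 239 and 287, which alone held both groups, the Grp-poor hexagons lay at medial-lateral 1100, 1141 and 1488. The 9 Grp-rich hexagons of these sections lay at 1162 to 1391. The Grp-poor hexagon of section 383 lay at 1173, inside the 1162 to 1406 spanned by the Grp-rich hexagons of all sections. In ranges set after the values were seen, 1 of 8 Vip-rich hexagons at 1100 to 1187 was Grp-rich, 11 of 14 at 1236 to 1406 were, and the hexagon at 1488 was not. Median Grp was 12, 127 and 0 CPM in these ranges. Among Vip-poor hexagons Grp reached 50 CPM in 1 of 13 at 1133 to 1184, 6 of 17 at 1252 to 1406 and 1 of 5 at 1414 to 1516, with 1 more hexagon in none of these ranges.

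None of the 3 coordinate means passed the test. The medial-lateral coordinate averaged 1309 ± 75.7 in Grp-rich and 1226 ± 178 in Grp-poor hexagons (SD, n = 12 and 4; exact permutation test, two-sided, adjusted p = 0.504 over 3 coordinates). The hexagon at 1488 decides this value: the difference was 83.7 with it and 171 without it, where the adjusted p was 0.0264 (exact permutation test, 12 against 3 hexagons). The dorsal-ventral coordinate averaged 771 ± 120 in Grp-rich and 742 ± 131 in Grp-poor hexagons (exact permutation test, adjusted p = 0.660). The anterior-posterior coordinate averaged 263 ± 43.4 in Grp-rich and 299 ± 60.4 in Grp-poor hexagons (exact permutation test, adjusted p = 0.504). The smallest one-sided p that 12 against 4 hexagons allow in an exact permutation test is 0.000549. The two-sided tests used here double the smaller tail, and could still have passed the threshold. Their p-values, too, are too small if mice contributed several hexagons each.

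**Figure D2:**
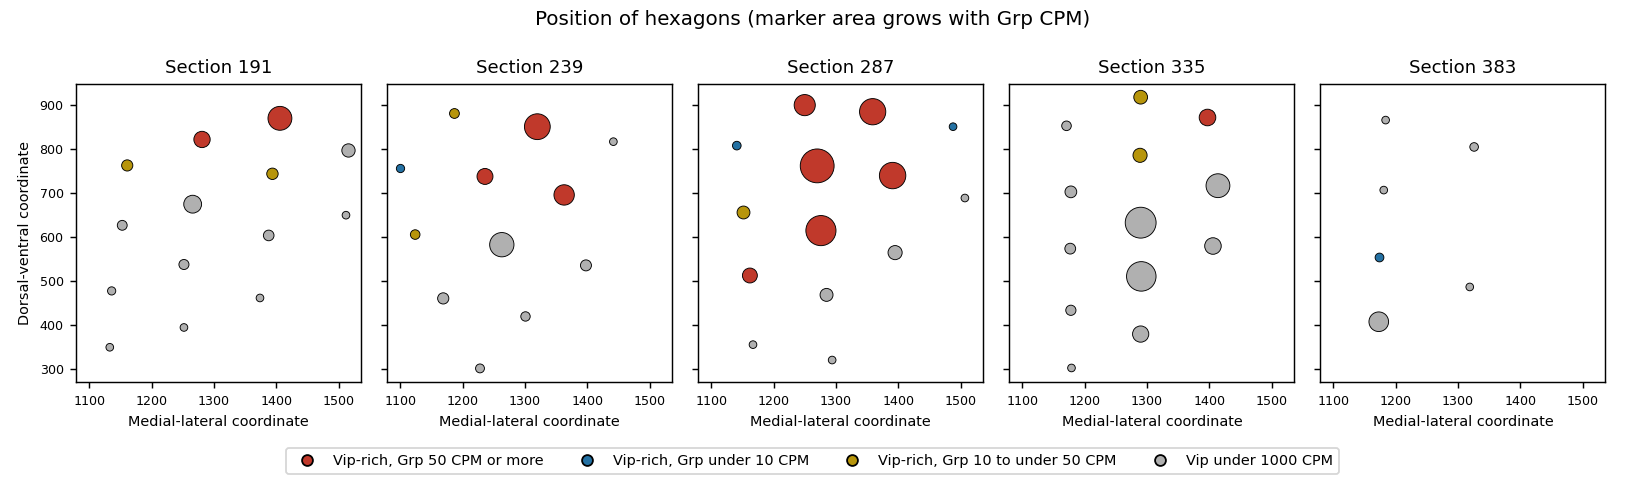
Medial-lateral (horizontal) and dorsal-ventral (vertical) coordinates, without a unit in the labels, of the 59 hexagons, with a panel for each of sections 191, 239, 287, 335 and 383 and a marker area that grows with Grp CPM. In sections 239 and 287 the Grp-poor hexagons sit at 1100, 1141 and 1488, outside the 1162 to 1391 spanned by the Grp-rich hexagons.

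Among 10484 genes tested, Vip and Grp left out, 1 passed the threshold between Grp-rich and Grp-poor hexagons, and it was higher in the Grp-rich ones (0.00954% of genes tested; edgeR's quasi-likelihood test, section as a factor, Benjamini-Hochberg adjusted p under 0.05). No gene passed with a lower level (0.0%). At an unadjusted p under 0.05 the same fit gave 313 genes with higher levels (2.99%) and 188 with lower levels (1.79%), together 501 (4.78%). DESeq2 called 4 genes, all higher (0.0382%): Zc3hc1, Plcxd3, Itga9 and Zfp119b. Itga9 and Zfp119b had no count in any Grp-poor hexagon. They peaked in the Grp-rich hexagon of section 335, at 52.0 and 188 CPM, against at most 8.08 and 23.2 CPM in other Grp-rich hexagons. With edgeR their adjusted p was 0.999 and 0.859. The median log2 fold change over all genes tested was 0.01. These p-values run over hexagons that may share an animal and are too small.

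The gene that passed was Zc3hc1, which encodes NIPA, an F-box protein first described in control of entry into mitosis (chr6:30366380-30391028, minus strand, GRCm38). It ran from 7.74 to 118 CPM in the Grp-rich hexagons with a median of 32.5, on 198 counts in total. All 4 Grp-poor hexagons had no count. The groups did not overlap in measured CPM. With 3 counts over the pooled Grp-poor group as a floor (1.35 CPM) the pooled level was at least 26.2-fold higher in Grp-rich hexagons (edgeR adjusted p = 0.0411). In single Grp-poor hexagons a count of 0 allows up to 10.03, 8.09, 7.19 and 2.63 CPM (3 counts). The lowest Grp-rich value, 7.74 CPM, itself rested on 3 counts and lay below 10.03 and 8.09 CPM, so separation by single hexagons is not certain. The transcript was not restricted to Grp-rich tissue, since all 7 Vip-rich hexagons between the thresholds had it at 12.7 to 41.5 CPM and 31 of 36 Vip-poor hexagons had it, with a median of 17.2 CPM. Its highest value, 118 CPM, came from the hexagon of section 335 that stood apart, and without that hexagon the adjusted p was 0.07 (edgeR), while without the whole of section 335 it was 0.0345. The call was lost in 10 of the 16 fits that left out 1 hexagon, with the weakest value, an adjusted p of 0.468 (edgeR), without the Grp-poor hexagon at medial-lateral 1488. It held in 15 of the 34 alternatives in which the gene could be fitted (the slope over Grp, where it did not pass, is counted apart here and for the genes that follow), with the same sign in all 34 and edgeR or DESeq2 adjusted p from 0.000449 to 1. An annotated 5S ribosomal RNA gene (n-R5s161) overlaps it on the other strand. The sources do not say whether strand was used in counting, so reads of such overlapping pairs may be mixed.

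The remaining genes named by rule with the smallest p-values on the higher side did not pass (edgeR adjusted p = 0.537 to 0.796). Plcxd3, which encodes a phospholipase C-like protein, came closest. It ran from 52.5 to 240 CPM in Grp-rich hexagons (median 138), against 23.4, 16.2, 28.8 and 57.8 CPM in Grp-poor ones. In 11 of 12 Grp-rich hexagons it exceeded every Grp-poor value, with a log2 fold change of 2.14 ± 0.55 (SE; edgeR adjusted p = 0.537). It passed in 4 of 37 alternatives (adjusted p from 0.0125 to 1), among them DESeq2 (adjusted p = 0.0262) and the fit restricted to sections 239 and 287 (edgeR adjusted p = 0.0312). It also passed in the slope over Grp (edgeR adjusted p = 0.0398). The median of Plcxd3 was 43.0 CPM in Vip-rich hexagons between the thresholds and 47.4 CPM in Vip-poor ones.

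Ephb2, an Eph receptor tyrosine kinase of axon guidance and synapses, ran from 14.7 to 60.4 CPM in Grp-rich hexagons, against 6.68, 0, 0 and 4.38 CPM in Grp-poor ones, so its groups did not overlap. Its median was 31.9 CPM in Grp-rich hexagons, 30.2 CPM in Vip-rich hexagons between the thresholds and 20.8 CPM in Vip-poor ones. Baiap2, which encodes the postsynaptic scaffold protein IRSp53, ran from 8.06 to 82.2 CPM with a median of 60.1 in Grp-rich hexagons, against 3.34, 0, 0 and 13.1 CPM in Grp-poor ones. A single Grp-rich hexagon, of section 287, lay below the highest Grp-poor value. Its log2 fold change was 2.94 over all sections and 5.63 without section 383, where it passed (edgeR adjusted p = 0.0461; 0.0278 to 1 over 36 alternatives). Unc13a, which encodes the vesicle-priming protein Munc13-1, ran from 34 to 173 CPM in Grp-rich hexagons, against 90.2, 10.8, 16.8 and 7.00 CPM in Grp-poor ones. Its Grp-poor value of 90.2, in section 239, stood within the Grp-rich range, and without that hexagon Unc13a passed (log2 fold change 2.84, edgeR adjusted p = 0.0215, the lowest of 37 alternatives that reached 1). Unc13a overlaps Colgalt1 on the other strand. The median of Unc13a was 86.2 CPM in Grp-rich hexagons, 67.4 CPM between the thresholds and 81.1 CPM in Vip-poor hexagons. For Baiap2 the median was 33.9 CPM between the thresholds and 33.8 CPM in Vip-poor hexagons.

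Stau1 encodes an RNA-binding protein of transport granules. It averaged 127 ± 65.1 CPM in Grp-rich and 46.3 ± 15.6 CPM in Grp-poor hexagons (SD, n = 12 and 4), and 10 of 12 Grp-rich hexagons exceeded all Grp-poor ones. Pcdh10, a protocadherin of cell adhesion, averaged 167 ± 106 CPM in Grp-rich and 53.5 ± 40.8 CPM in Grp-poor hexagons, and Impdh2, the rate-limiting enzyme of guanine nucleotide synthesis, 104 ± 39.4 CPM in Grp-rich and 39.1 ± 30.0 CPM in Grp-poor hexagons. Emb, which encodes the adhesion protein embigin, averaged 74.3 ± 30.3 CPM in Grp-rich and 18.9 ± 11.7 CPM in Grp-poor hexagons. Impdh2 overlaps Ndufaf3 on the other strand. Medians in Grp-rich, between-threshold and Vip-poor hexagons were 104, 93.6 and 98.1 CPM for Stau1 and 138, 98.1 and 135 CPM for Pcdh10. In the same order they were 100, 55.1 and 72.6 CPM for Impdh2 and 70.4, 46.9 and 52.4 CPM for Emb. High Stau1 and Pcdh10 were thus not particular to Grp-rich hexagons.

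On the lower side the 10 genes named by rule did not pass either (edgeR adjusted p = 0.537 to 0.822). Tmem47, a membrane protein of cell junctions, ran from 82 to 300 CPM in Grp-rich hexagons (median 167), against 307, 351, 307 and 745 CPM in Grp-poor ones. The groups did not overlap, and the highest Grp-rich value lay just under the lowest Grp-poor ones (log2 fold change -0.99 ± 0.26, SE; edgeR adjusted p = 0.537). Without section 191 it passed (edgeR adjusted p = 0.0425, the lowest of 37 alternatives that reached 1). Fgf1, which encodes acidic fibroblast growth factor, ran from 0 to 111 CPM with a median of 47.4 in Grp-rich hexagons, against 174, 181, 105 and 176 CPM in Grp-poor ones. A single Grp-rich hexagon, of section 239, reached the Grp-poor range, and the log2 fold change was -1.89 ± 0.53 (SE; edgeR adjusted p = 0.625). Fgf1 overlaps Arhgap26 on the other strand.

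Dtx4, an E3 ubiquitin ligase of Notch signalling, ran from 2.00 to 64.8 CPM in Grp-rich hexagons, against 66.8, 48.5, 139 and 98.9 CPM in Grp-poor ones. Osbpl2, an oxysterol-binding protein, ran from 2.00 to 158 CPM in Grp-rich hexagons, against 211, 151, 110 and 192 CPM in Grp-poor ones. Tmem65, a mitochondrial inner membrane protein, ran from 2.00 to 65.2 CPM in Grp-rich hexagons, against 73.5, 97.1, 91.1 and 105 CPM in Grp-poor ones, again with no overlap. The lowest Grp-rich value of all 3 genes came from the hexagon of section 335. Ptch1, the receptor for hedgehog ligands, averaged 177 ± 62.1 CPM in Grp-rich and 301 ± 51.2 CPM in Grp-poor hexagons. Zfhx4, a zinc finger homeobox factor, averaged 56.0 ± 41.3 CPM in Grp-rich and 121 ± 45.1 CPM in Grp-poor hexagons, Plekhm3 60.8 ± 35.5 CPM in Grp-rich and 143 ± 39.8 CPM in Grp-poor hexagons, Aacs, a cytosolic acetoacetate-activating enzyme, 12.2 ± 11.6 CPM in Grp-rich and 47.6 ± 35.9 CPM in Grp-poor hexagons, and Trim2, a neuronal ubiquitin ligase, 241 ± 64.3 CPM in Grp-rich and 341 ± 79.9 CPM in Grp-poor hexagons.

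**Figure D3:**
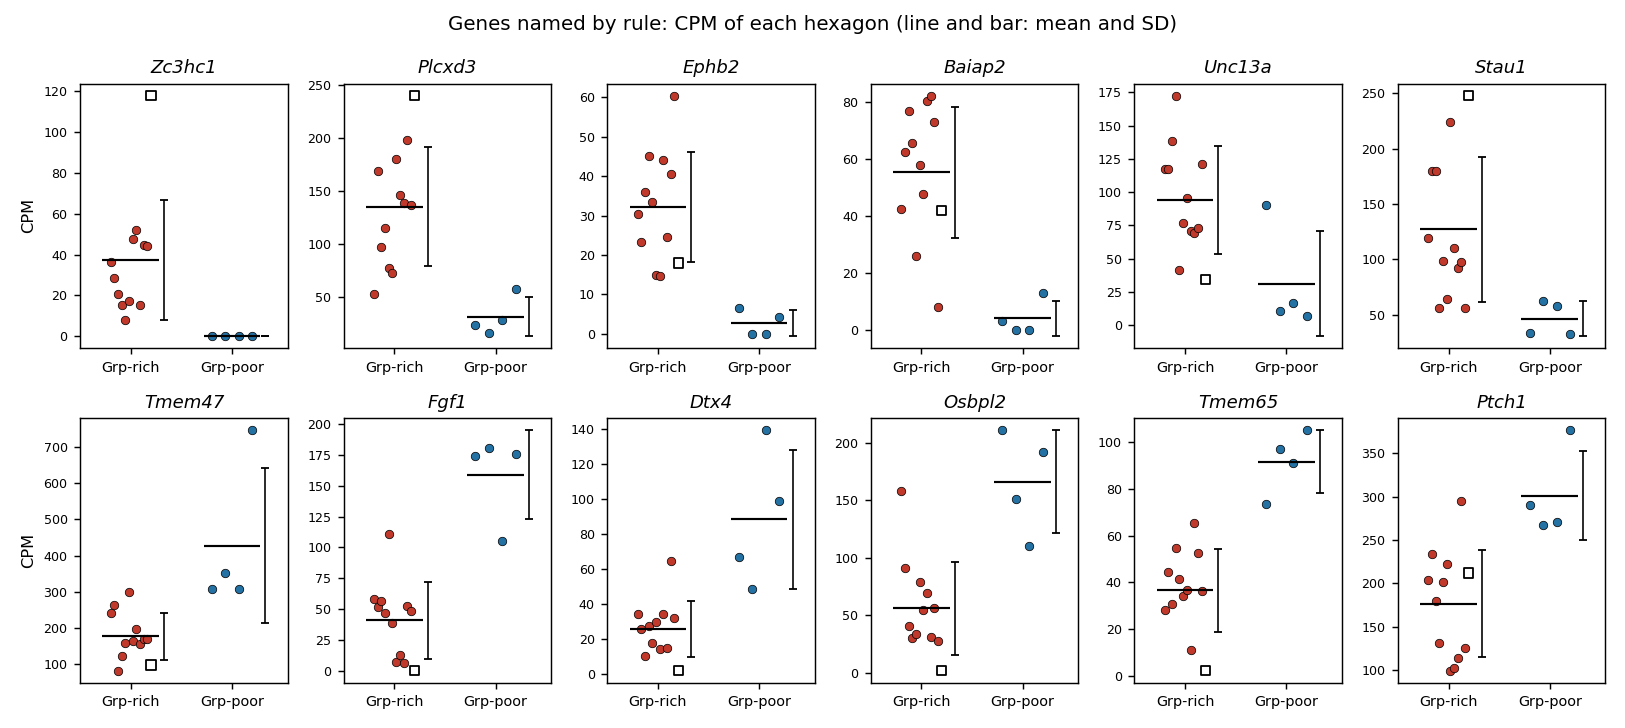
CPM in each Grp-rich (red, n = 12, left) and Grp-poor (blue, n = 4, right) hexagon for 6 named genes of each direction, with the mean as a line and the SD as a bar; the open square is the Grp-rich hexagon of section 335. Zc3hc1 is at 0 in all 4 Grp-poor hexagons, and Ephb2, Tmem47 and Tmem65 show no overlap between groups.

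Over all genes tested, the CPM ranges of the groups did not overlap for 9 genes with higher and 9 with lower values in Grp-rich hexagons (0.0858% in each direction). On the higher side these included, beside Zc3hc1 and Ephb2, Brinp1 with 170 to 580 CPM in Grp-rich and 45.9 to 132 CPM in Grp-poor hexagons, Nectin3 with 31 to 148 CPM in Grp-rich and 9.58 to 18.9 CPM in Grp-poor hexagons, and Rgmb with 72.5 to 166 CPM in Grp-rich and 28.9 to 59.3 CPM in Grp-poor hexagons. Brinp1 and Rgmb encode proteins known from neuronal development, and Nectin3 an adhesion protein of cell contacts. On the lower side were Tmem47, Tmem65 and Sytl4, and also Plin2, a lipid droplet coat protein, with 0 to 12.1 CPM in Grp-rich and 26.7 to 67.4 CPM in Grp-poor hexagons. These 5 genes beyond the named set, and the list members described from here on that are not in the rule, were chosen after their values were seen. Sytl4 encodes granuphilin, which docks dense-core vesicles. It had 1 count over the 12 Grp-rich hexagons, against 16.7, 5.39, 38.3 and 31.5 CPM in Grp-poor ones. It missed the threshold in the fit of the 59 hexagons (edgeR adjusted p = 0.0876) and passed in 4 of 32 alternatives (adjusted p from 0.00286 to 1), with the same sign in all 32.

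Of 335 genes in 22 lists on SCN peptides, signalling and cell types, 256 could be tested and none passed the adjusted threshold. At an unadjusted p under 0.05, 16 had higher and 13 had lower levels in Grp-rich hexagons, beside 2.99% and 1.79% of all genes tested. The median log2 fold change of list genes was -0.08, against 0.01 over all genes tested. Medians of single lists moved with single hexagons, and with 1 left out the sign turned for SCN peptides, clock, glutamate receptor, GABA, cAMP and calcium, dense-core vesicle, channel, oligodendrocyte precursor, mural and meningeal genes.

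Of the 6 other SCN peptide genes tested 0 passed, with a median log2 fold change of -0.21 that ran from -0.68 to 0.48 with 1 hexagon left out. Avp, which encodes vasopressin, a peptide of the SCN shell, ran from 0 to 263 CPM in Grp-rich hexagons (median 39.7), against 134, 59.3, 465 and 188 CPM in Grp-poor ones. Of the 12 Grp-rich hexagons 6 lay below every Grp-poor value and 0 above the highest (log2 fold change -1.71 ± 0.72, SE; edgeR adjusted p = 0.962). In the Vip-poor hexagons Avp had a median of 408 CPM. Cck, which encodes cholecystokinin, ran from 0 to 285 CPM with a median of 15.6 in Grp-rich hexagons, against 73.5, 108, 352 and 12.3 CPM in Grp-poor ones (log2 fold change -2.18 ± 0.97, SE; edgeR adjusted p = 0.999). The hexagon at medial-lateral 1488 gave the highest value of both Avp and Cck, and without it the log2 fold changes were -1.03 for each, with adjusted p = 0.999 (edgeR). With no filter on low counts both passed (edgeR adjusted p = 3.06e-06 for Avp and 0.0106 for Cck), at nearly the same fold changes, and over all alternatives the adjusted p reached 1 for each.

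Nms, which encodes neuromedin S, averaged 215 ± 111 CPM in Grp-rich and 206 ± 223 CPM in Grp-poor hexagons (SD, n = 12 and 4). Prok2, which encodes prokineticin 2, an SCN output signal, averaged 306 ± 194 CPM in Grp-rich and 231 ± 227 CPM in Grp-poor hexagons, and Penk, the enkephalin precursor gene, 104 ± 77.0 CPM in Grp-rich and 156 ± 171 CPM in Grp-poor hexagons. All 3 overlapped, and the Grp-poor hexagon of section 383 gave the highest Grp-poor value of each. Without it the log2 fold change was 1.23 for Nms, 1.56 for Prok2 and 0.68 for Penk, against 0.46, 0.68 and -0.20 with it, so that the sign for Penk turned; none passed either way (edgeR adjusted p of 0.999 with it and 1.000 without it). Within sections 239 and 287 all 9 Grp-rich hexagons had more Nms (196 to 371 CPM) than the 3 Grp-poor ones (100, 165 and 28.8 CPM). This subset was looked at after the values were seen, and the share of all genes that separate so within it was not counted. Nms passed in 0 of 37 alternatives (lowest edgeR or DESeq2 adjusted p = 0.0889).

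Peptide receptors showed no called member among 14 tested (median log2 fold change 0.21). Grpr, the receptor for GRP, ran from 0 to 118 CPM in Grp-rich hexagons with a median of 37.3, against 10.03, 16.2, 0 and 57.8 CPM in Grp-poor ones. The Grp-poor hexagon with no Grpr count was also the one with no Grp count. Vipr2 averaged 285 ± 216 CPM in Grp-rich and 224 ± 147 CPM in Grp-poor hexagons, Avpr1a, a vasopressin receptor, 23.4 ± 19.7 CPM in Grp-rich and 24.0 ± 27.1 CPM in Grp-poor hexagons, and Prokr2, the prokineticin receptor, 447 ± 384 CPM in Grp-rich and 389 ± 254 CPM in Grp-poor hexagons. Calcr, the calcitonin receptor, was the receptor with the widest gap in means. It was at 0 in 7 of 12 Grp-rich hexagons and reached 66.4 CPM in the others, against 30.1, 35.1, 59.9 and 806 CPM in Grp-poor ones. The value of 806 came from section 383, and the log2 fold change was -2.56 ± 1.21 with it (SE; edgeR adjusted p = 0.999) and -1.96 without it. It too passed with no filter on low counts (edgeR adjusted p = 4.75e-06; up to 1 over 33 alternatives). Npy1r, a neuropeptide Y receptor, ran from 0 to 92.3 CPM with a median of 46.9 in Grp-rich hexagons, against 3.34, 13.5, 0 and 1.75 CPM in Grp-poor ones. In 10 of 12 Grp-rich hexagons it exceeded all Grp-poor values (log2 fold change 3.54 ± 1.38, SE; edgeR adjusted p = 0.859), and its median was 4.52 CPM in the Vip-rich hexagons between the thresholds.

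**Figure D4:**
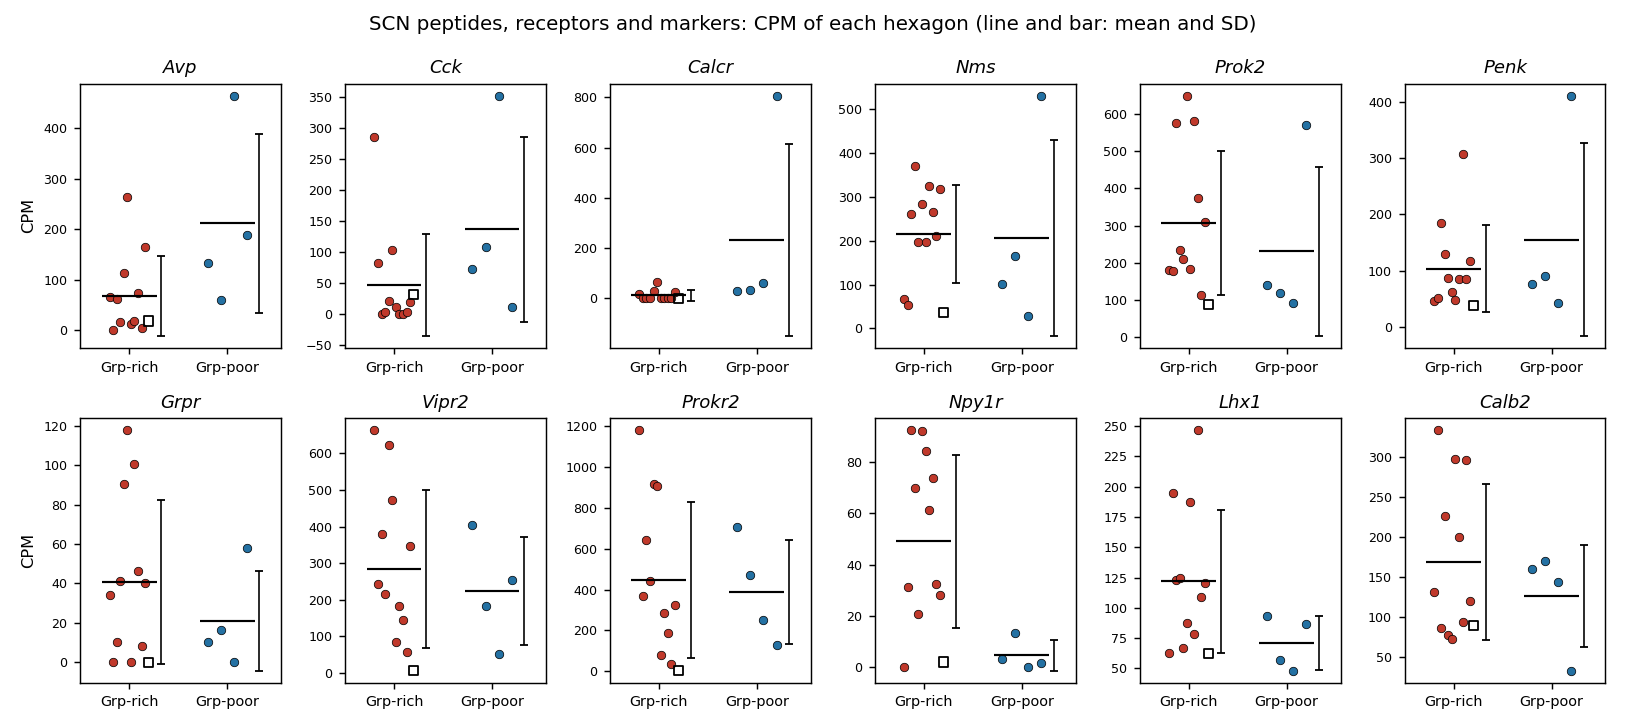
CPM in each Grp-rich (red, n = 12, left) and Grp-poor (blue, n = 4, right) hexagon for SCN peptides, receptors and markers, with the mean as a line and the SD as a bar; the open square is the Grp-rich hexagon of section 335. Calcr reaches 806 CPM in 1 Grp-poor hexagon, and Npy1r exceeds all Grp-poor values in 10 of 12 Grp-rich hexagons.

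None of the 23 clock genes tested passed (median log2 fold change -0.20). Per1 averaged 149 ± 49.8 CPM in Grp-rich and 174 ± 90.3 CPM in Grp-poor hexagons, and Per2 90.7 ± 62.2 CPM in Grp-rich and 71.5 ± 34 CPM in Grp-poor hexagons; both encode period proteins that repress their own transcription. Rorb, a nuclear receptor abundant in the SCN, averaged 890 ± 279 CPM in Grp-rich hexagons (SD, n = 12), against 1373, 976, 791 and 1619 CPM in Grp-poor ones. Nfil3, a repressor of clock output genes, was found in 11 of 12 Grp-rich hexagons at up to 38.5 CPM and had no count in any Grp-poor hexagon, at least 11.6-fold higher by the floor of 3 counts over the group (edgeR adjusted p = 0.822). It rested on 88 counts in all.

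Among SCN transcription factors 0 of 14 passed, and 11 of the 14 had a positive log2 fold change (median 0.57), beside 5361 of all 10484 genes tested. The median was -0.008 without section 287. With Grp at 50 CPM or more against all Vip-rich hexagons below it, the median was 0.09. Lhx1, a LIM homeobox factor needed for coupling of SCN neurons, averaged 122 ± 59.1 CPM in Grp-rich and 71.2 ± 22.3 CPM in Grp-poor hexagons, and Six3, a homeobox factor of the forebrain, 79.9 ± 15.6 CPM in Grp-rich and 116 ± 43.3 CPM in Grp-poor hexagons. Nr2f2, the orphan nuclear receptor COUP-TFII, ran from 30.0 to 251 CPM with a median of 122 in Grp-rich hexagons, against 13.4, 8.09, 86.3 and 21.9 CPM in Grp-poor ones. The exception was again the hexagon at medial-lateral 1488, and 8 of 12 Grp-rich hexagons exceeded even that value (log2 fold change 1.85 ± 0.60, SE; edgeR adjusted p = 0.810).

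The calcium-binding and vesicle markers of the core gave 0 of 8 passing (median log2 fold change -0.15). Calb1, which encodes calbindin, a marker of the rodent SCN core, averaged 172 ± 66.5 CPM in Grp-rich and 290 ± 203 CPM in Grp-poor hexagons, and Calb2, which encodes calretinin, 169 ± 97.0 CPM in Grp-rich and 127 ± 63.3 CPM in Grp-poor hexagons. Syt10, a synaptotagmin enriched in the SCN, averaged 1053 ± 345 CPM in Grp-rich and 927 ± 386 CPM in Grp-poor hexagons, and C1ql3, a secreted synaptic protein, 86.4 ± 50.5 CPM in Grp-rich and 97.8 ± 63.1 CPM in Grp-poor hexagons. Rgs16, a regulator of G-protein signalling, averaged 750 ± 460 CPM in Grp-rich and 1218 ± 583 CPM in Grp-poor hexagons. Nov, which encodes the secreted protein CCN3, ran from 0 to 181 CPM with a median of 111 in Grp-rich hexagons, against 3.34, 2.70, 9.58 and 28 CPM in Grp-poor ones. The only Grp-rich hexagon at 0 was that of section 335, and the other 11 exceeded every Grp-poor value. Nov was chosen after its values were seen, and the share of all genes that separate so with 1 hexagon set aside was not counted. In the fit of the 59 hexagons Nov did not pass (log2 fold change 2.72 ± 1.35, SE; edgeR adjusted p = 0.999), while in the fit of the 16 hexagons alone with section as a factor it did (log2 fold change 4.51, edgeR adjusted p = 0.000266; up to 1 over 36 alternatives).

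Signalling lists held no called member. For immediate early genes 0 of 12 passed and 10 of 12 had a negative log2 fold change (median -0.27), beside 5123 of all 10484 genes tested. Fos, a marker of recent neuronal activity, averaged 37.2 ± 35.5 CPM in Grp-rich and 61.6 ± 37.3 CPM in Grp-poor hexagons. For GABA signalling 0 of 20 passed (median -0.05), and Gad1, which makes the transmitter of nearly all SCN neurons, averaged 1297 ± 336 CPM in Grp-rich and 1101 ± 332 CPM in Grp-poor hexagons, and Gad2, its second isoform gene, 661 ± 213 CPM in Grp-rich and 573 ± 113 CPM in Grp-poor hexagons. Counts for the remaining lists were 0 of 19 glutamate receptor, 0 of 35 cAMP and calcium signalling, 0 of 18 peptide processing and dense-core vesicle and 0 of 27 excitability channel genes, with medians from -0.09 to 0.09. The 8 pan-neuronal markers gave 0 called and a median of -0.32.

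**Figure D5:**
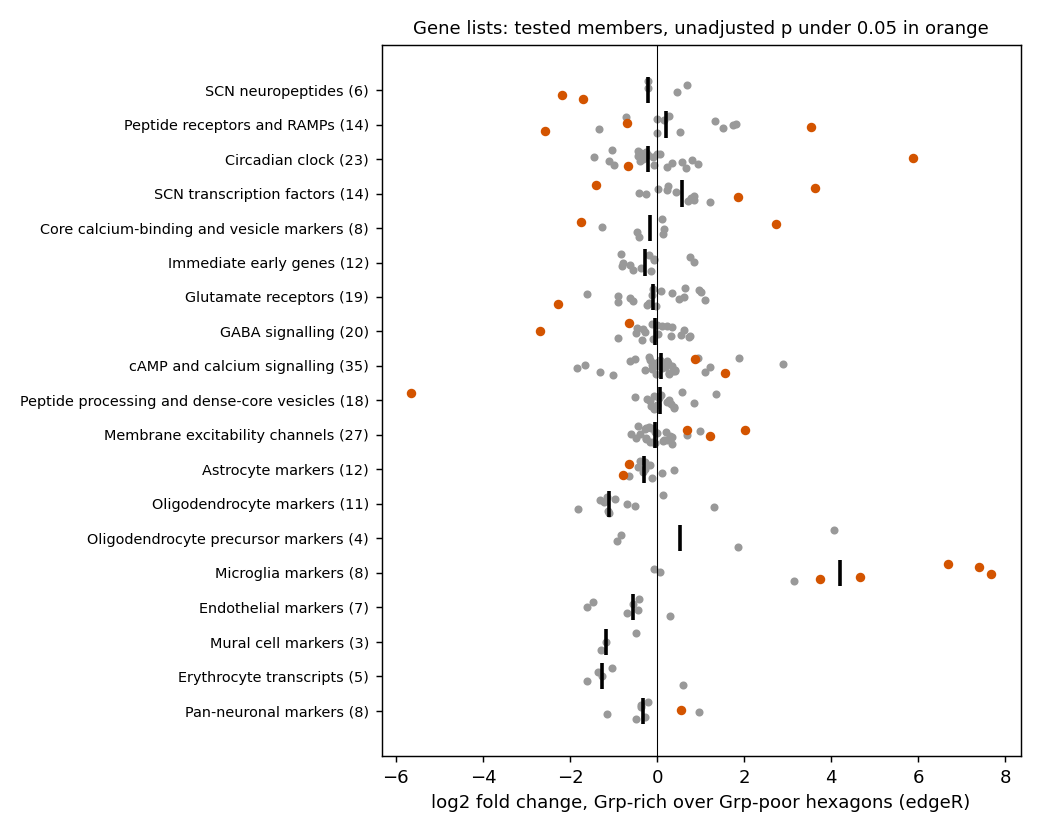
Log2 fold change (horizontal, Grp-rich over Grp-poor, edgeR) of each tested member of the lists with 3 or more tested genes, with the number tested in parentheses and the list's median as a bar; orange marks an unadjusted p under 0.05. No member passed the adjusted threshold, and the microglia list has the largest median, 4.21.

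Markers of other cell types also varied between hexagons. Of the microglia markers 0 of 8 tested passed, while 5, P2ry12, Tmem119, C1qb, C1qc and Csf1r, had an unadjusted p under 0.05 with higher levels in Grp-rich hexagons, beside 2.99% of all genes. P2ry12, Tmem119 and Csf1r, which mark resident microglia, had no count in any Grp-poor hexagon and were detected in 7, 7 and 9 of 12 Grp-rich ones, whereas Cx3cr1, a chemokine receptor gene of the same list, was detected in all 4 Grp-poor hexagons. The list's median log2 fold change was 4.21, or 3.7 with the 3 genes at 0 set to their lower bounds. It ran from 3.16 to 5.65 with 1 hexagon left out. With Grp at 50 CPM or more against all Vip-rich hexagons below it, it was 1.05 and 0 members had an unadjusted p under 0.05, while with no filter on low counts 3 members passed (edgeR). Summed over the 9 listed genes the groups overlapped, with 11 to 636 CPM in Grp-rich (median 91.7) and 27.0 to 62.3 CPM in Grp-poor hexagons (median 49.9). The summed median was 325 CPM in Vip-rich hexagons between the thresholds (18.1 to 434) and 115 CPM in Vip-poor ones. Both exceeded the Grp-rich median, so a high microglia sum was not particular to Grp-rich hexagons. Csf1r overlaps Hmgxb3 on the other strand.

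Astrocyte markers had 0 of 12 called and 10 of 12 negative log2 fold changes (median -0.31), beside 5123 negative ones among all 10484 genes tested. Their sums were 1859 to 11958 CPM in Grp-rich and 6002 to 8245 CPM in Grp-poor hexagons. Oligodendrocyte markers had 0 of 11 called (median -1.11) and sums of 201 to 15504 CPM in Grp-rich and 1407 to 4874 CPM in Grp-poor hexagons; a single Grp-rich hexagon of section 191 held the 15504. Lists for oligodendrocyte precursors (0 of 4; median 0.52), endothelial cells (0 of 7; median -0.55), mural cells (0 of 3; median -1.18), ependymal cells and tanycytes (0 of 1), meningeal fibroblasts (0 of 2) and erythrocytes (0 of 5; median -1.27) gave no call, and no glutamatergic neuron marker could be tested. With 1 hexagon left out the medians ran from -2.15 to -0.64 for oligodendrocytes, -0.91 to 2.63 for precursors, -1.05 to -0.11 for endothelial cells, -1.71 to 0.69 for mural cells and -3.01 to -0.27 for erythrocytes. Erythrocyte transcripts summed to 8.22 to 2713 CPM in Grp-rich and 7.88 to 2195 CPM in Grp-poor hexagons. The part of these cell types in the gene differences above was not tested.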

How the data were processed

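The data are RNA libraries of 82 laser-captured hexagons, with the group of each taken from its own Vip and Grp values and its labelled coordinates. The authors deposited a table of whole-number counts for 27515 genes and a table of RPKM values for 27055 of them. Per the submitters' processing notes, bcl2fastq 2, STAR and the build GRCm38 were used, without their roles. How reads were assigned to genes, and with which gene models and strand rule, is not stated by any label or header. The deposited RPKM values equal the deposited counts scaled by gene length and library total, so they add no independent evidence. Symbols came from the RPKM table for 27055 IDs and a reference table for 455, and 5 had none. Gene positions are those of GENCODE on GRCm38. CPM is counts per total of the library, on the usual scale; totals ran from 11905 to 2843366.

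Members and gene lists were chosen with earlier results of these data known. The fit was edgeR 4.0.16 in R 4.3.3 (TMM scaling, robust quasi-likelihood) on the 59 hexagons in 4 classes, Grp-rich, Grp-poor, between and Vip-poor, with section as a factor, over genes that reached 10 counts in at least 10 hexagons; the step was tested on simulated data. Standard errors are the log2 fold change over the square root of F. Coordinates and depth were compared by exact permutation tests (scipy 1.17.1). Named were the called genes and, up to 10 per direction, those of smallest p with a mean CPM of 20 or more, called members of lists, and 23 SCN genes fixed by name. Alternatives covered DESeq2 1.42.0, scaling, filters, depth, thresholds on Vip and Grp, coordinates, library set, sections and single hexagons. Sections restricted to 239 and 287 were added after seeing the data. The library set, read from the first letter of a description label, is an inference. Sets C and G held 2 and 1 Grp-rich but 0 Grp-poor hexagons, and set H held 1 Grp-poor but 0 Grp-rich. Sets D, E and F held both groups.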

Additional observations from a re-analysis of the deposited data

Results flagged for a closer look

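Values that stood far from the other 3 Grp-poor hexagons were found for 6 genes named by rule, by Dixon's gap test, which marks about 1 in 20 groups of 4 by chance. In the Grp-poor hexagon of section 383 Tmem47 was at 745 CPM, Prok2 at 571, Penk at 411 and Calcr at 806, with the next highest Grp-poor values at 351, 140, 91.7 and 59.9 CPM. The same hexagon held 2506 CPM of meningeal fibroblast markers summed. In the Grp-poor hexagon of section 239 Unc13a was at 90.2 CPM, with the next highest at 16.8. In the Grp-poor hexagon of section 287 at medial-lateral 1488 Fgf1 was at 105 CPM, below the next lowest value of 174.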

How the results depend on the processing

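The count of called genes stayed at 1 in 7 of the 22 alternatives that changed a setting or left out sections, and in 6 of the 16 that left out 1 hexagon. The single gene was not always Zc3hc1. It was Unc13a without section 239, and Plcxd3 in the fit restricted to sections 239 and 287. In place of 1 gene, 0 passed with both coordinates added, with libraries under 300000 counts left out, with Grp at 100 CPM or more, with Grp at 50 CPM or more against all Vip-rich hexagons below it, with Vip at 2000 CPM or more, without section 287, and in the fit of the 16 hexagons without section; 2 passed with Vip at 500 CPM or more and without section 191, 3 without section 383, 4 with DESeq2 and in the fit of the 16 hexagons with section, 5 in that fit within sections 239 and 287, 6 for the slope over log2 Grp in all 23 Vip-rich hexagons, and 37 with no filter on low counts (15 higher, 22 lower). The slope called Nxph1, Arpp21, Cd24a, Ppfia2 and Plcxd3 as rising and Cck as falling with Grp. Leaving out 1 hexagon at a time gave 0 to 2 genes; without the Grp-poor hexagon of section 239 the single call was Unc13a, and the 9 hexagons without which none passed were the Grp-rich ones of section 191 at medial-lateral 1281, section 239 at 1236, section 287 at 1270, 1359 and 1391 and section 335, and the Grp-poor ones of section 287 at 1141 and 1488 and section 383. List members called numbered 0 in the fit of the 59 hexagons, 15 with no filter, and 1 in the fit of the 16 hexagons with section, within sections 239 and 287, without section 383, with Vip at 500 CPM or more and for the slope, and 0 to 1 with 1 hexagon left out. The cause of these changes was not tested.

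Over 12 against 4 hexagons, the differences in coordinate with 1 hexagon left out ran from 41.8 to 171 (medial-lateral), -33.6 to 65.1 (dorsal-ventral) and -56 to -8 (anterior-posterior), those in genes detected from 16 to 416 and in log2 total from -0.43 to 0.22. The sign turned for genes detected with Grp at 50 CPM or more against all below it (-423) and without section 287 (-199), for log2 total at Vip 2000 CPM or more (0.28) and without section 383 (0.22), and for dorsal-ventral without section 383 (-33.6); none of these passed. Of all coordinate and depth tests, 1 passed, medial-lateral without the Grp-poor hexagon at 1488 (171). Over the named genes and alternatives, Zc3hc1 lost its call in 19, other genes gained one in 17, and 0 called values reversed. No paired analysis was possible because replicate numbers were given in accession order and pair no hexagons.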
